A study of Rattus norvegicus with 10 samples.

Results

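Release of neurotransmitter depends on a set of proteins that dock synaptic vesicles at the nerve terminal, prime them and fuse them with the plasma membrane when calcium enters. A total of 64 genes of this machinery and of its gene families were described here, out of 12828 genes in the deposited table. They were chosen by symbol alone: the synaptotagmins (Syt), synapsins (Syn), synaptophysin (Syp), the named Snap, syntaxin (Stx) and Vamp genes, the syntaxin-binding proteins (Stxbp), Rab3, the complexins (Cplx), Sv2, Rims and Unc13 genes. A choice by symbol also takes in family members that act elsewhere, among them 12 SNAREs of the Golgi, endoplasmic reticulum, endosomes, lysosomes and autophagosomes. Values for the whole set include these genes. All 64 are protein-coding and each symbol occurs in 1 row.

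In this machinery a SNARE protein of the vesicle (Vamp) zips together with SNAREs of the target membrane (a syntaxin and a Snap protein), and the bundle pulls both membranes together. Synaptotagmins sense calcium, complexins clamp and assist the bundle, and Unc13 proteins prime it. Rab3 GTPases and RIM proteins hold vesicles at the active zone, while synapsins tether the reserve pool. In the arcuate nucleus of the hypothalamus (ARC), as in other brain regions, neurons use these proteins to release fast transmitters, and related proteins release neuropeptides.

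RNA was taken from the ARC of 10 Wistar rat dams at parturition. Of these, 5 had been fed 5X-FA and 5 had been fed 5X-MTHF through pregnancy, that is, 5 times the recommended quantity of folic acid or an equimolar quantity of the reduced folate 5-methyltetrahydrofolate. Both diets shared the AIN-93G base, all dams were in their first pregnancy, and their age is not given in the sources used here. The ARC was cut free-hand from frozen coronal slices, so that a sample holds whatever cells the cut held, and the mRNA was selected by its poly-A tail. The values used are 1 average per gene over all libraries, in CPM on a log2 scale (CPM are read counts scaled to library size). This value is called averaged log2 CPM below. The 10 columns of values per library carry no name that a sample label shares, and no column was therefore assigned to a dam or a diet. Neither a difference between the diets nor a spread between dams is given, and no value below has an SD or an n.

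The averaged log2 CPM ran from -2.07 to 14.56 over the table, with a median of 4.94. These values are shares of sequenced reads and were not divided by transcript length. A longer transcript yields more reads, so the values tell how many reads each gene received and do not rank genes by number of mRNA molecules. Percentiles below give the share of all genes in the table with as many reads or fewer. The deposited table is labelled as filtered, and the methods of the study describe a minimal filter on reads per gene. Percentiles and the table's median therefore refer to the genes that were kept. The methods of the study state a nominal sequencing depth, but an average over libraries does not show the depth that each one reached.

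The vesicle release genes received more reads than most genes of the table. Their median averaged log2 CPM was 5.80, against 4.94 over all genes, and the median percentile was 67.8. Of the 64 genes, 46 lay above the median of the table and 18 lay below it. The 10% of genes with the most reads included 19 of the 64 (29.7%). With the averages turned back into CPM, the 64 genes summed to 12468 CPM, which was 1.24% of the table's total, while they make up 0.499% of its rows. These reads were unevenly shared, as the 4 members with the most reads took 34.9% of the members' total, the top 10 took 61.9% and the top 20 took 83.7%.

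**Figure D1:**
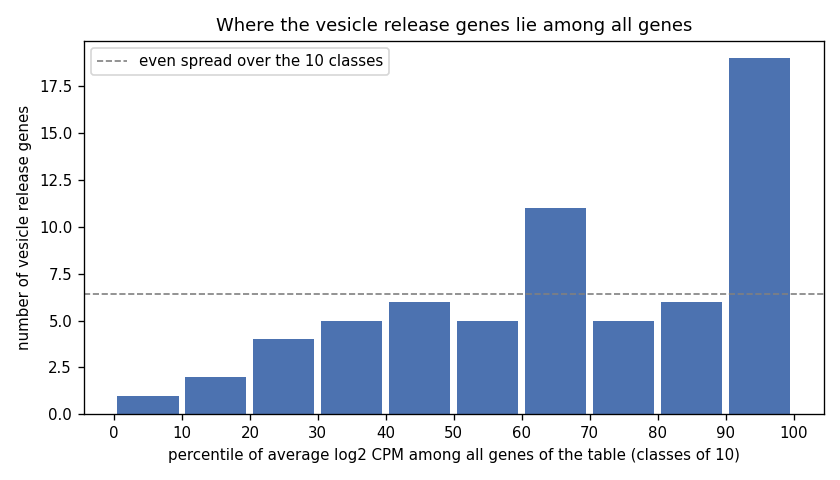
Number of vesicle release genes (vertical axis, out of 64) in each class of 10 percentiles of averaged log2 CPM among all genes of the table (horizontal axis); the dashed line at 6.4 is an even spread. The top class holds 19 genes and the lowest holds 1.

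The SNAREs of neuronal exocytosis stood high. Snap25, the target-membrane SNARE that gives the bundle a pair of its helices, had the most reads of all 64 genes. Its averaged log2 CPM was 10.44, or 1390 CPM, which placed it at rank 35 of the table, and it lies on chromosome 3 of Rnor_6.0 from 129599353 to 129788400. Vamp2, the main synaptic vesicle SNARE of the forebrain, was at 9.64 (percentile 99.2). Stx1a, a neuronal plasma membrane syntaxin, was at 5.89 (percentile 69.4). Vamp1, a vesicle SNARE close in sequence to Vamp2, was at 8.41. Snap25 alone took 11.1% of the members' reads and Vamp2 took 6.38%.

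SNAREs that act inside the cell received fewer reads. The 12 SNAREs of the Golgi, endoplasmic reticulum, endosomes, lysosomes and autophagosomes had a median averaged log2 CPM of 5.07 and took 5.91% of the members' reads, and 8 of them lay above the table's median. Stx12, an endosomal syntaxin, was at 7.46, Stx16 of the trans-Golgi network at 7.02 and Stx6, also of that network, at 6.79. Vamp4, which works between endosomes and Golgi, was at 6.75. Stx17, the autophagosome syntaxin, was lowest of the 16 target-membrane SNAREs at 3.20 (percentile 18.4). Stx2, Stx3 and Stx4, which serve exocytosis in many cell types, lay between 4.51 and 5.66.

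The vesicle SNARE list also held the gene with the fewest reads of the 64. Vamp5, which is best known from muscle, was at 1.47, or 2.78 CPM (percentile 4.31), and Vamp8, an endolysosomal SNARE, was at 3.49 (percentile 22.7). Both lie on chromosome 4 of Rnor_6.0, Vamp5 from 100231561 to 100232559 and Vamp8 from 100250301 to 100252755, with a gap of 17.7 kb between them.

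**Figure D2:**
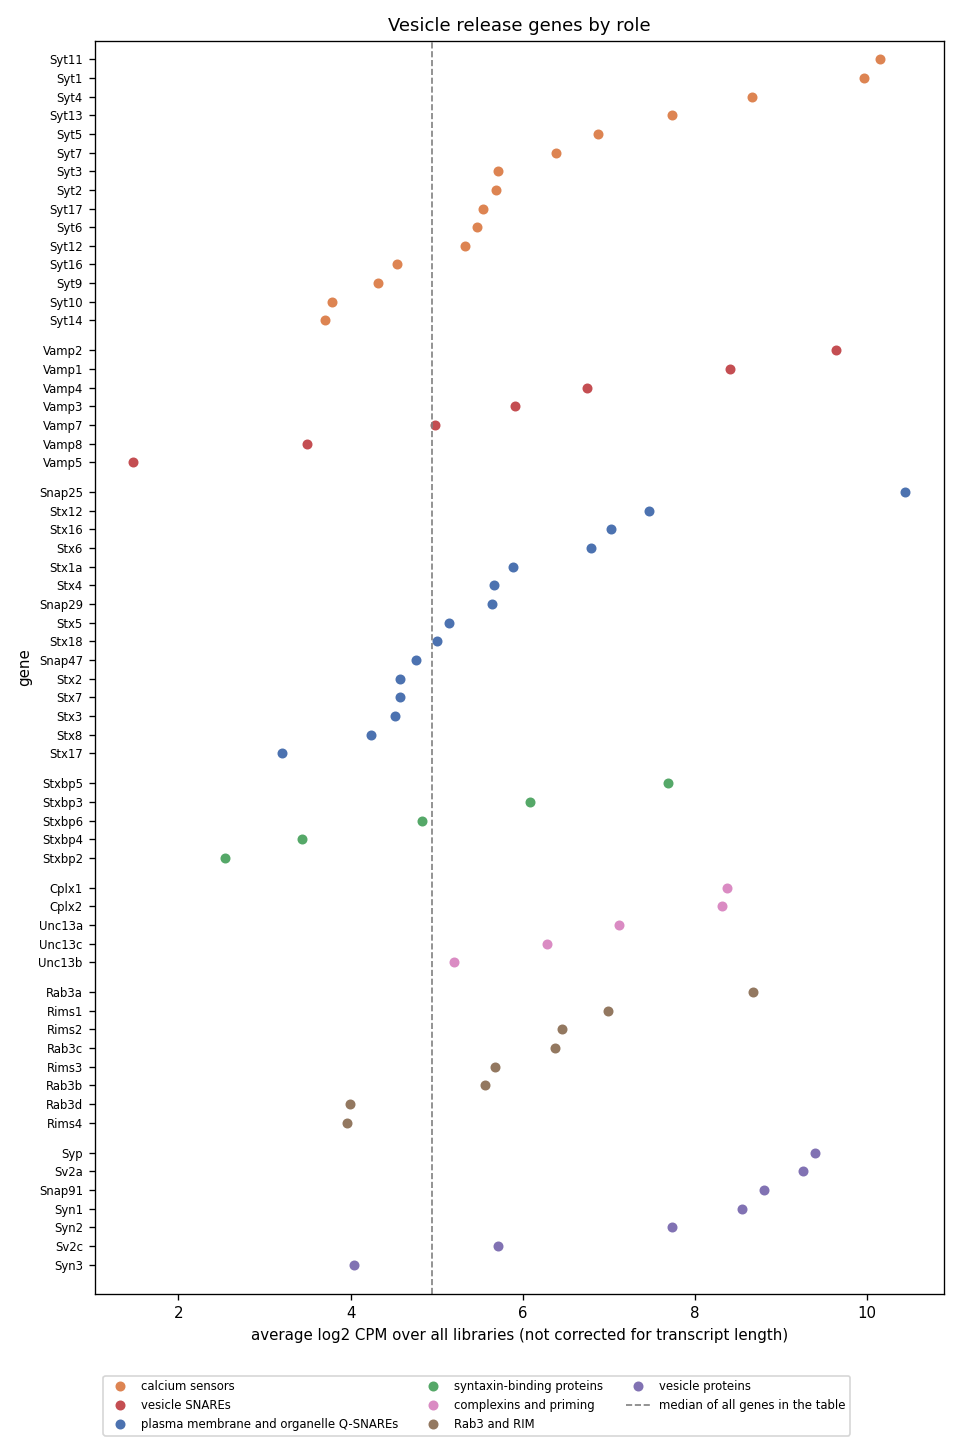
Averaged log2 CPM over all libraries (horizontal axis, not corrected for transcript length) of 62 of the 64 vesicle release genes (rows), grouped and coloured by role; the dashed line is the table's median of 4.94. Values within a role are spread widely, and the plotted genes run from Vamp5 at 1.47 to Snap25 at 10.44.

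Among the 15 synaptotagmins, Syt11 and Syt1 had the most reads. Syt1, the calcium sensor of fast synchronous release, was at 9.96, or 994 CPM (percentile 99.5), and lies on chromosome 7 from 50084060 to 50638798. Syt11 was at 10.14, or 1132 CPM (percentile 99.6), and Syt4 at 8.66 (percentile 97.7). Both of these belong to the synaptotagmins that do not bind calcium in the manner of Syt1. Grouped in this way, the 7 members that do not bind calcium took 15.0% of the members' reads and the 8 calcium-binding members took 11.0%. Each group rested on few genes, since Syt11 alone took 9.08% and Syt1 alone took 7.97%.

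The remaining calcium-binding synaptotagmins were spread widely. Syt5 was at 6.88 and Syt7, a slow high-affinity sensor of asynchronous release, at 6.38. Syt3 was at 5.71 and Syt2, the fast sensor best known from brainstem and spinal synapses, at 5.69. Syt6, Syt9 and Syt10 were at 5.46, 4.32 and 3.78. Of the others, Syt13 was at 7.73, and Syt14, at 3.70, had the fewest reads of the 15 (percentile 25.8). Syt8 and Syt15 were not analysed here.

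The 6 syntaxin-binding proteins had a median averaged log2 CPM of 5.46. Stxbp5 (tomosyn), which competes for syntaxin and holds release back, was at 7.69, and Stxbp3, a Munc18 protein of many cell types, at 6.08. Stxbp2, a Munc18 protein of blood and epithelial cells, was lowest at 2.54 (percentile 10.9). Genes for clamping and priming all lay above the table's median. The complexins Cplx1 and Cplx2 were at 8.37 and 8.32, and the priming factors Unc13a, Unc13c and Unc13b at 7.12, 6.28 and 5.20. Cplx3 and Cplx4 were not analysed here.

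Rab3a, the GTPase most bound to synaptic vesicles, was at 8.67 (percentile 97.8). Rab3c and Rab3b were at 6.37 and 5.56, and Rab3d, known from secretory cells, at 3.99. The long RIM scaffolds Rims1 and Rims2 were at 6.99 and 6.46. Rims3 was at 5.68, and Rims4 was lowest of the 8 Rab3 and RIM genes at 3.96 (percentile 30.3).

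The proteins of the vesicle itself formed the role with the highest median, 8.54 over 7 genes, of which 5 were in the top 10% of the table. Syp, an abundant membrane protein of the vesicle, was at 9.39, and Sv2a, a vesicle glycoprotein that is the target of levetiracetam, was at 9.25. Snap91 (AP180), which recruits clathrin to retrieve vesicles, was at 8.80. Syn1 was at 8.54 and Syn2 at 7.73, whereas Sv2c was at 5.72 and Syn3 at 4.04 (percentile 32.0). Sv2b was not analysed here.

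Each synapsin gene overlaps a gene for a tissue inhibitor of metalloproteinases in Rnor_6.0. Syn1 overlaps Timp1, whose averaged log2 CPM was 2.26, over 4.60 kb, Syn2 overlaps Timp4 (5.37) over 6.52 kb, and Syn3 overlaps Timp3 (6.84) over 49.9 kb. For Syn3 the overlapping gene received more reads than the synapsin. The same held for Stxbp4, at 3.44, which overlaps Cox11 (5.28) over 57.6 kb. In all, 6 of the 64 genes overlap another gene of the table, among them also Rab3a with Mpv17l2. The methods of the study describe the libraries as strand specific, which separates overlapping genes on opposite strands where the counting uses strand. The strand setting of the counting is not given in the sources used here, so the reads of these 6 genes are uncertain to that extent. The genomic spans of the 64 genes, introns included, ran from 0.999 kb (Vamp5) to 555 kb (Syt1), with a median of 43.6 kb against 21.5 kb over all genes of the table.

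Promoter sequence was compared as a feature that the choice of genes did not use. RefSeq promoters on the GRCr8 build matched 49 of the 64 symbols, and 46 of these had a single window. In the 250 bases before the gene start, the GC box GGGCGG, read on both strands, was found in 32 of the 46 (69.6%). It was found in 60.3% of the 8839 genes of the table with a single window and in 33.6% of all 24206 such genes. The median GC content was 61.4% for the 46 genes and 60.8% for the genes of the table. The TATA box letters TATAAA were found in 1 of the 46 (2.17%), against 6.04% of the genes of the table and 13.3% of all genes. The cAMP response element TGACGTCA, a palindrome, was found in 2 of the 46 (4.35%), those of Syn1 and Vamp1, against 2.95% of the genes of the table and 1.72% of all genes. None of the 3 motifs holds another, and tandem GC boxes were counted separately. Syn1 and Vamp1 are printed as the 2 windows with the cAMP response element, and Vamp2 and Vamp5 as the vesicle SNAREs with the most and the fewest reads. Capitals mark any of the 3 motifs on either strand.
Syn1 promoter (GRCr8, chrX:3725495-3725744, plus strand): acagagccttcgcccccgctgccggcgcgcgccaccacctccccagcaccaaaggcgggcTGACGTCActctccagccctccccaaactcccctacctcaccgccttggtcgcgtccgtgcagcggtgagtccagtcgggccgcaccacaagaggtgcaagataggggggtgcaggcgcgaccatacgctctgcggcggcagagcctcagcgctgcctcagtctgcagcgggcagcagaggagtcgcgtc
Vamp1 promoter (GRCr8, chr4:159698644-159698893, plus strand): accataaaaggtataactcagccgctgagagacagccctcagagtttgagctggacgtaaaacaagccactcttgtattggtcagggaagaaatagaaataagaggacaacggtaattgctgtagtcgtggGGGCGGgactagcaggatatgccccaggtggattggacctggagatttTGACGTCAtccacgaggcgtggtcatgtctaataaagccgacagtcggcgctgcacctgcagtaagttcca
Vamp2 promoter (GRCr8, chr10:54292539-54292788, plus strand): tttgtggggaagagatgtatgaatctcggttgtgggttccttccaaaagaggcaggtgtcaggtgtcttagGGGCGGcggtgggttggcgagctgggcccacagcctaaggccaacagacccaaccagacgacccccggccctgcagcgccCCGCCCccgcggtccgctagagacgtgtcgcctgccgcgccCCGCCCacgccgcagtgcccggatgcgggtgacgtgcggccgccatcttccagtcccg
Vamp5 promoter (GRCr8, chr4:105993248-105993497, minus strand): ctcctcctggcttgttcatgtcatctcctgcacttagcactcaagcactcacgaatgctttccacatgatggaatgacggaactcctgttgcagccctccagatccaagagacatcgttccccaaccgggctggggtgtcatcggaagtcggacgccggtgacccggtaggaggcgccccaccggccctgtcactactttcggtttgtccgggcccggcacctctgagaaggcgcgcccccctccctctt
The Vamp2 window holds 3 GC boxes and the Vamp1 window holds 1, whereas the Syn1 window holds none. The Vamp5 window holds none of the 3 motifs. The values used hold no measurement of factor binding at these windows.

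Other genes of the presynaptic cycle also lay high in the table. Of 72 such genes on a list of vesicle retrieval, scaffolds, transmitter loading and relatives of the members, 67 have a value. Their median averaged log2 CPM was 6.89 (median percentile 85.5), and 23 of them (34.3%) lay in the top 10% of the table. The 9 genes of the clathrin coat and its adaptors all lay above the table's median, led by the clathrin heavy chain Cltc at 10.27. Nsf, the ATPase that takes spent SNARE bundles apart, was at 9.76, and its partners Napg, Napb and Napa were at 7.55, 7.23 and 7.08. Dnm1, the dynamin that pinches off retrieved vesicles, was at 9.56 and Synj1, which uncoats them, at 9.04. The scaffolds Pclo and Bsn were at 7.92 and 7.73.

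The transporters that fill vesicles differ by transmitter. Slc17a6 (VGLUT2), the glutamate transporter of hypothalamus and thalamus, was at 8.09 and Slc32a1, the transporter for GABA and glycine, at 7.40. Slc17a7 (VGLUT1), best known from cerebral cortex and hippocampus, was at 7.17. The monoamine transporter Slc18a2 was at 5.19 and the acetylcholine transporter Slc18a3 at 2.91. Slc17a8 (VGLUT3) and Slc18a1 were at 2.64 and 1.73.

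The tissue was checked against markers of cell types and brain regions. Oligodendrocyte markers had the highest median, 9.90 over 5 genes, with Mbp at 12.59. Astrocyte markers followed with 9.68 over 4 genes, and the neuronal markers Tubb3, Elavl4 and Rbfox3 were at 8.60, 6.96 and 6.14. Microglial markers had a median of 4.32 over 4 genes, and the endothelial markers Flt1 and Cldn5 were at 6.28 and 5.77. Acta1 of muscle was at 2.99 and Cga of the pituitary at 4.95, while the other markers of these tissues (Ckm, Gh1 and Prl) were not analysed here. Of 9 arcuate markers, 8 have a value, from 0.08 (Kiss1) to 6.02 (Cartpt), with a median of 3.28, and 1 of the 8 lay above the table's median. Npy, the remaining arcuate marker, was not analysed here. Pomc was at 4.67 and Agrp at 1.42. All 7 markers of striatum have a value, with a median of 5.37, Penk being highest at 7.68 and Ppp1r1b next at 7.07. Of the 7 markers of cerebral cortex and hippocampus 6 have a value, from 2.13 (Neurod2) to 8.44 (Camk2a), and of the thalamic ones all 4 lay between 3.19 and 8.09. Of the 6 markers of cerebral cortex and hippocampus, 3 lay above the table's median and 3 below it, with Neurod6 at 2.40 and Tbr1 at 3.34. The highest thalamic value was that of Slc17a6, which is also the glutamate transporter of the hypothalamus. Tcf7l2, Prkcd and Lef1 were at 5.28, 4.79 and 3.19. The libraries hold reads of markers known from regions outside the ARC, though a marker such as Slc17a6 is not confined to those regions. Slc17a6 and Slc17a7 count among the transporters above and these markers alike. The vesicle release genes are used by neurons of all these regions, so their reads cannot be assigned to arcuate neurons. The set also holds SNAREs that act inside the cell and members that serve many cell types. The libraries also hold reads of oligodendrocyte and astrocyte markers, and no values by cell type were available. The reads of the set can therefore not be assigned to neurons alone either. The part of each region and of each cell type in these reads was not tested. In bulk tissue, fewer cells of a type and less RNA per cell cannot be told apart.

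**Figure D3:**
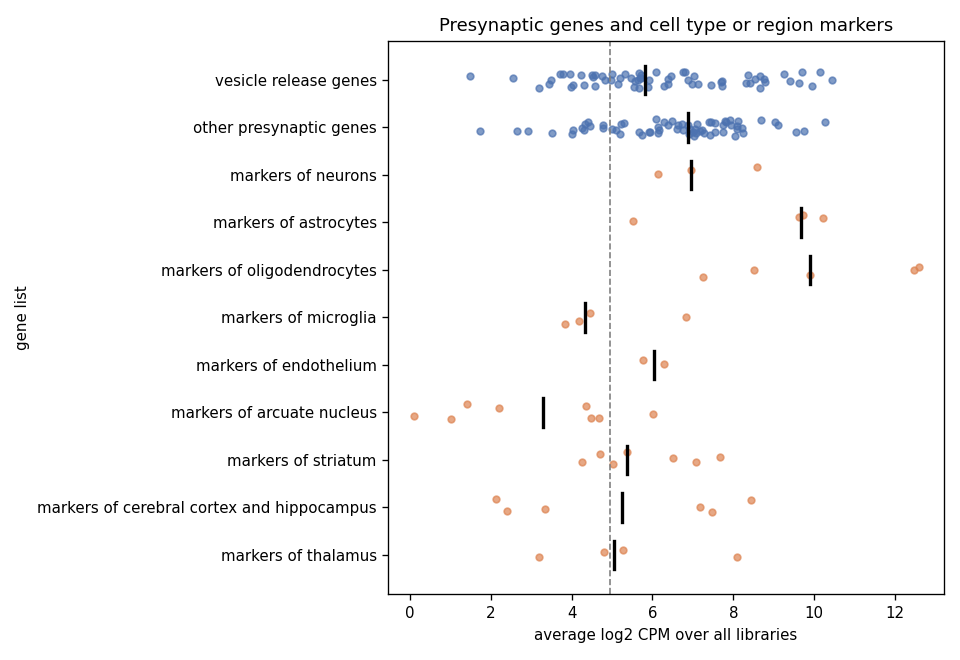
Averaged log2 CPM over all libraries (horizontal axis) of the 64 vesicle release genes, the 67 other presynaptic genes and the markers of cell types and brain regions (rows, each point a gene, lists with a single measured gene left out); black bars are medians and the dashed line is the table's median of 4.94. The oligodendrocyte and astrocyte markers have the highest medians of the plotted lists, 9.90 and 9.68, and the arcuate markers the lowest of them, 3.28. The neuronal list leaves out Snap25 and Syt1, which are among the vesicle release genes.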

How the data were processed

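Poly-A selected RNA of the ARC of 10 dams (5 per diet) was sequenced as read pairs. Per the labels and the methods of the study, the authors trimmed reads with Trim Galore 0.5.0, aligned them with STAR 2.6.0c to Rnor_6.0 with Ensembl gene models and counted them with HTSeq 0.6.1p2. The authors deposited 1 table of 12828 genes (12383 protein-coding, 22 repeated symbols). The column used is the average CPM on a log2 scale over all libraries, as deposited by the authors. Raised from base 2, it sums to 1002152 over the table, which settles the log base. The tool that averaged it is not given in the sources used here, nor whether the average was taken before or after the logarithm. Back-transformed CPM are therefore approximate.

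The table also holds the authors' own comparison of the diets (fold change, test statistic, *p*-value and FDR of each gene), which was not used. Another 10 columns of values per sample, which no label names, were left out as well. The planned tests between diets on values per dam could therefore not be run, and no alternative to them was computed.

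Symbols were matched to the choice of genes and to hand-written lists of roles, other presynaptic genes and markers. The members and lists were chosen with earlier results of these data known, and the subgroups of synaptotagmins, SNAREs and other presynaptic genes after the averages had been seen. The naming rule took the 3 highest members and the lowest of each role. The values of some genes that this rule selects are not reported here. Other named genes were chosen after their values were seen. A percentile is the share of genes at or below a value. Promoters are those of RefSeq (GRCr8), matched by symbol. The calculations were tested on simulated ranks and planted motifs, with matplotlib 3.10.9, scipy 1.17.1, pandas 2.3.3 and numpy 2.4.6 in Python 3.11.15.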

Additional observations from a re-analysis of the deposited data

How the results depend on the processing

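No paired analysis was possible because the values per library could not be mapped to dams, so that no column carries a replicate number. For the same reason no fit without 1 dam, with another model, normalization or pseudocount, or with another filter was run. The plan was to compare genes only by levels per transcript length. No such level was computed, because transcript lengths were not at hand and the unnamed columns of values per sample were left out. Genes were compared by reads instead, which departs from the plan. The alternative that was computed ranks genes among protein-coding genes alone. It moved the median percentile of the 64 genes from 67.8 to 66.9, and 19 of the 64 stayed the number in the top 10%. Single percentiles fell for 61 genes, by at most 1.86 points. For 31 of the 64 they stayed within the 95% Wilson interval of the percentile over all genes, which covers only the number of genes ranked. Since 12383 of the 12828 genes are protein-coding, these shifts could only be small. The alternative therefore cannot show how stable the levels are. With 1 averaged value per gene, the spread between dams limits every level here by an unknown amount.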
